A study of Mus musculus with 12 samples.

Results

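Mitochondrial ribosomal protein genes were read here across mouse embryonic stem cells given PBS or hydrogen peroxide. A gene was a member when a probe set on the MG_U74Av2 array carried 1 symbol and that symbol began with Mrpl (large subunit) or Mrps (small subunit) followed by a number. Of 8252 genes with a single symbol on the array, 61 were members, 40 of the large subunit and 21 of the small, read by 76 probe sets. Signal was high enough for a test in 59 of the 61, that is 38 large and all 21 small subunit genes, out of 6414 genes tested in all.

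All 12 samples came from E14tg2a mouse embryonic stem cells of clone C2, which carry a pair of targeted sites for the endonuclease I-SceI, so every group rests on 1 clone. Control cells were kept in PBS without peroxide (n = 3). The low dose was 100 µM hydrogen peroxide in PBS for 15 min (n = 4) and the high dose 5 mM for 30 min (n = 5), both followed by 1 h in maintenance medium before RNA was taken. Concentration and exposure time changed together, so their effects cannot be told apart. The controls' time in PBS and in recovery medium is not given in the sources used here, so in a comparison with the controls the return to medium cannot be told apart from peroxide. Replicates are not said to be separate cultures, and p-values then reflect only how far these samples spread, a spread that may be technical. The data are from bulk RNA, in which fewer cells of a type and less RNA per cell cannot be told apart.

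Mitochondrial ribosomes translate the few messages of the mitochondrial genome, which encode core subunits of the respiratory chain and ATP synthase. Their ribosomal RNAs come from mitochondrial DNA, while all of their proteins are encoded in the nucleus, made on cytosolic ribosomes and imported. Some of these proteins descend from bacterial ribosomal proteins, and others were added during the evolution of mitochondria. Embryonic stem cells are known for immature mitochondria and a strong reliance on glycolysis.

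Promoters of nuclear genes for mitochondrial proteins often hold binding letters of ETS-family factors such as GABP, of YY1 or of NRF1, and the stretch around the start site was examined because many members moved together at the low dose. RefSeq promoter windows of assembly GRCm38.p6, from 250 bases before to 50 bases after the start, were matched by symbol for 54 of the 61 members. Mrpl4, Mrpl13, Mrpl15, Mrpl38, Mrpl54, Mrps28 and Mrps34 had no entry. The windows below run 5′ to 3′ on the gene's own strand, stop 30 bases after the start and show CCGGAAG (ETS) and AAGATGGC (YY1), or their reverse complements, in capitals. Mrpl34 (chr8:71464676-71464955, plus strand) and Mrpl58 (chr11:115403502-115403781, plus strand) had the largest falls at the low dose. Mrpl52 (chr14:54426659-54426938, plus strand) holds the ETS letters in the opposite orientation. Mrps12 (chr7:28741792-28742071, minus strand) and Mrps18a (chr17:46110754-46111033, plus strand) hold the letters of both factors. Of these, Mrps12 fell at both doses and Mrps18a passed in no comparison.
Mrpl34: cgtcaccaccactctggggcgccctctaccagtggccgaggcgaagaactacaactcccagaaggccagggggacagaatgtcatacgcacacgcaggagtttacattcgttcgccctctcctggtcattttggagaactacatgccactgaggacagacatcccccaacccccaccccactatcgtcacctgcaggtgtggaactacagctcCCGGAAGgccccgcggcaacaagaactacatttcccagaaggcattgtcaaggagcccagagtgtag
Mrpl58: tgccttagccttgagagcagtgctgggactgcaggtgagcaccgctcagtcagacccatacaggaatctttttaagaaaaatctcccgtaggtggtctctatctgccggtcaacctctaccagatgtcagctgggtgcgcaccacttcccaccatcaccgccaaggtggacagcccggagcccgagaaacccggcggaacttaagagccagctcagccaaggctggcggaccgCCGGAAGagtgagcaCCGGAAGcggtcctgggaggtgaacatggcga
Mrpl52: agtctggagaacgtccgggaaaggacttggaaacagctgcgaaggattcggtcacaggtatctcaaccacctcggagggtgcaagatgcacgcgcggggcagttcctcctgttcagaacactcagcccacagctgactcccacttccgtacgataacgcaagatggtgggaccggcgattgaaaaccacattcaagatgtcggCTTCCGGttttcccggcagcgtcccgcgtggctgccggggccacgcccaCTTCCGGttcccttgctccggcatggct
Mrps12: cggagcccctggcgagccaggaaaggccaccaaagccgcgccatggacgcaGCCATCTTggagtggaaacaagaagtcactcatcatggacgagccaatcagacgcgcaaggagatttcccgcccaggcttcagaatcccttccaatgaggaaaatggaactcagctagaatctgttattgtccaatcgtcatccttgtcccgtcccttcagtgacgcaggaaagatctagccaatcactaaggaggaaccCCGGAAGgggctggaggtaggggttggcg
Mrps18a: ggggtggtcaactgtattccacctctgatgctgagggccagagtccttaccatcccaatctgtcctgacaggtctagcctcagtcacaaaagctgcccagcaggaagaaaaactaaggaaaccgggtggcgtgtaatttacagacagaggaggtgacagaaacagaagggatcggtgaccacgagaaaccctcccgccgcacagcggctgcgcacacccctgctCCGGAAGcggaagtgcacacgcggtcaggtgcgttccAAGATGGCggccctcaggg
In these 5 windows every ETS match began between 47 bases before and 2 bases after the start. The full windows of other members spread more widely, with ETS matches from -240 (Mrpl18) to 38 (Mrps33) relative to the start. Searched on both strands of the full windows, CCGGAAG was found in 18 of 54 members (33.3%), against 18.5% of the windows of tested genes and 9.12% of all 27025 windows. AAGATGGC was found in 10 of 54 (18.5%), against 4.92% and 2.88%. The NRF1 letters GCATGCGC were in 4 of 54 (7.41%, against 5.65% and 2.80%), the SP1 letters GGGCGG in 27 (50%, against 64.8% and 35.9%) and the E-box CACGTG in 4 (7.41%, against 10.8% and 7.24%). Among members that fell at the low dose, 7 of 19 windows held CCGGAAG (36.8%) and 3 held AAGATGGC (15.8%), and among tested members that did not pass, 11 of 33 (33.3%) and 6 of 33 (18.2%) did. Large subunit windows held CCGGAAG in 11 of 35 (31.4%) and AAGATGGC in 5 (14.3%), and small subunit windows in 7 of 19 (36.8%) and 5 of 19 (26.3%). These matches describe letters in a window and were not tested as sites.

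Signals are MAS5 intensities on a linear scale, 1 per probe set and array, and changes are log2 differences of signal plus an offset of 10.1 units, with standard errors (SE) from a limma fit across all tested probe sets. A gene passed when its Benjamini-Hochberg adjusted p was under 0.05, and "rose" or "fell" is used only of those. Arrays of 1 group correlated at 0.958 to 0.978 over probe sets and arrays of different groups at 0.921 to 0.957. The pluripotency factor Pou5f1 read 3291 to 5098 on the control arrays, and the 13 tested pluripotency markers had a summed signal of 30241 to 33543 there, 35814 to 41913 at the low dose and 34317 to 39489 at the high dose. The highest signal on an array was 8211 ± 891 (SD, n = 3) in the controls, 19629 ± 4699 (n = 4) after 100 µM and 27223 ± 6768 (n = 5) after 5 mM, so the bright end of the scale moved with treatment. Only Mrpl18 and Mrpl52 had a mean signal above 2000; over the tested members the mean signal ran from 38.8 to 5289, with a median of 495.3.

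The low dose was compared with the controls first. Of the 59 tested mitochondrial ribosomal protein genes, 22 fell and 0 rose in limma, or 37.3%, where 12.7% of all tested genes were lower, 11.9% higher and 24.6% called in either direction. At an unadjusted p under 0.05 there were 30 members, 1 of them higher. A negative change was seen in 52 of 59, with a median of -0.29 against 0.04 over all tested genes, and the members ranged from -1.03 to 0.77. The controls and the low dose did not overlap in 25 members, all lower at the low dose, where 15.2% of all tested genes were lower, 17.2% higher and 32.4% separate in either direction. All 22 that fell were among those 25. Their falls were moderate, between 1.30-fold and 2.04-fold with a median of 1.67-fold, and 16 reached 1.5-fold.

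Mrpl34, the counterpart of a small basic protein of the bacterial large subunit, read 1194, 1328 and 1465 in the controls, 655, 698, 587 and 639 at the low dose, and 1256, 1336, 1240.2, 1108 and 1255 at the high dose. The low-dose arrays lay apart from both other groups, which overlapped. The change at the low dose was -1.03 ± 0.12 (SE), or 2.04-fold (limma adjusted p = 2.9e-05). Mrpl58, a peptidyl-tRNA hydrolase that frees stalled mitochondrial ribosomes and sits in the large subunit, read 432, 314 and 339 in the controls, 190.3, 182, 169.7 and 174 at the low dose, and 337, 304, 372, 283 and 358 at the high dose. It showed the same order, with low-dose arrays below all others, and fell by 0.96 ± 0.15 (SE; limma adjusted p = 3.3e-04). Mrpl23, whose bacterial counterpart lies at the exit of the nascent chain, read 943, 675 and 638 in the controls, 386, 325, 445 and 371 at the low dose, and 1118, 1098, 1014, 829.8 and 1124 at the high dose. Its low-dose arrays were again the lowest, at a change of -0.95 ± 0.16 (SE; limma adjusted p = 6.3e-04), while 4 of 5 high-dose arrays lay above every control.

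Mrpl12, the stalk protein that recruits translation factors, read 977, 642 and 791 in the controls, 513, 376, 402 and 497 at the low dose, and 876, 901, 849, 757 and 846 at the high dose. The low dose lay below both other groups, and its change was -0.82 ± 0.15 (SE; limma adjusted p = 0.00128). Mrps12, a protein of the decoding region of the small subunit, read 768, 1021 and 923 in the controls, 441, 555, 499 and 459 at the low dose, and 572, 470.1, 618, 589 and 423 at the high dose. Here both treated groups lay below the controls and overlapped each other; the low-dose change was -0.87 ± 0.15 (SE; limma adjusted p = 9.3e-04). Mrpl24, whose bacterial counterpart starts the folding of the large ribosomal RNA, read 1983, 1672 and 1797 in the controls, 911, 1212, 1083 and 955 at the low dose, and 1199.7, 1057, 1217, 1050.3 and 976 at the high dose. It followed the pattern of Mrps12, with a low-dose change of -0.80 ± 0.13 (SE; limma adjusted p = 4.6e-04).

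**Figure D1:**
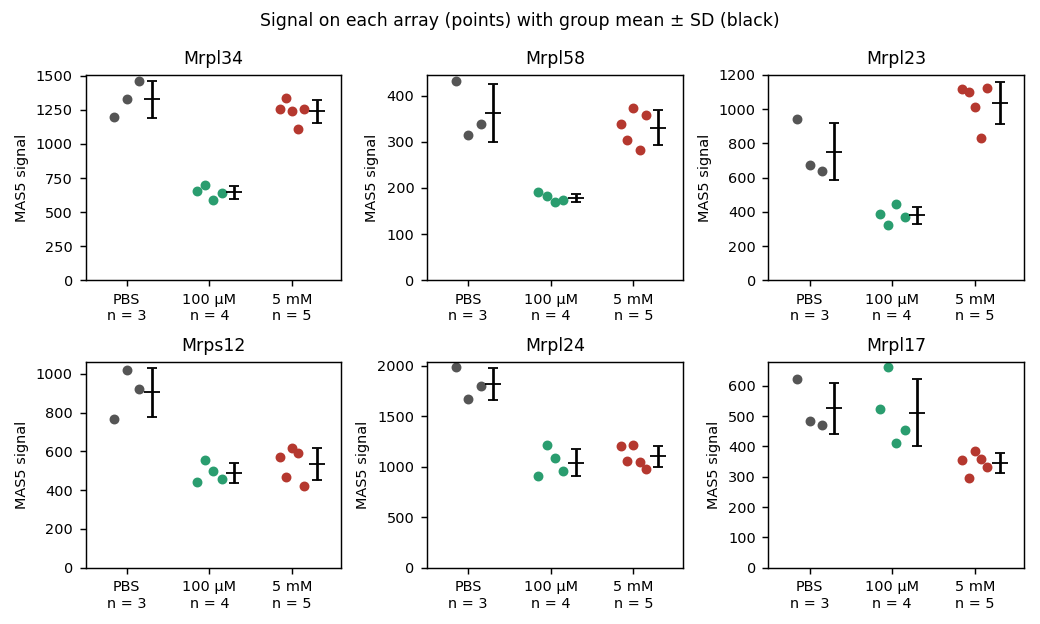
MAS5 signal (vertical axis, linear, from 0) on each array for 6 members, by treatment on the horizontal axis; points are arrays and black marks the group mean ± SD (n = 3, 4 and 5). Mrpl34, Mrpl58 and Mrpl23 were lowest at 100 µM, Mrps12 and Mrpl24 were lower than the controls at both doses, and Mrpl17 was lowest at 5 mM.

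Among the other large subunit genes that fell at the low dose, those with a bacterial counterpart were Mrpl20 (-0.77), Mrpl13 (-0.73), Mrpl36 (-0.64), Mrpl28 (-0.52), Mrpl35 (-0.46) and Mrpl2 (-0.38), whose bacterial counterpart lies near the peptidyl transferase centre. Those without one, by their number, were Mrpl38 (-0.71), Mrpl40 (-0.66), Mrpl51 (-0.58), Mrpl43 (-0.53) and Mrpl52 (-0.42). Mrpl40 varied little within a group, at 753, 728 and 725 in the controls, 479.5, 436, 476 and 449 at the low dose, and 599, 577, 626, 591 and 607 at the high dose. Its 3 groups were separate from one another, with the high dose in between. In the small subunit Mrps5 (-0.88), whose bacterial counterpart lies at the messenger entry, Mrps34 (-0.83), Mrps25 (-0.78), Mrps10 (-0.74) and Mrps26 (-0.66) fell beside Mrps12. Mrps5 read 197, 210.3 and 199 in the controls, 104, 80.7, 89.9 and 160.1 at the low dose, and 129.8, 112, 193, 112 and 147 at the high dose. Both treated groups of Mrps5 lay below the controls and overlapped, and its high-dose change of -0.54 did not pass (limma adjusted p = 0.116).

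Of the 37 tested members that did not pass at the low dose, Mrps7 had the most negative value (-0.49, limma adjusted p = 0.134) and 7 had positive ones. The most positive were Mrps16 at 0.77 ± 0.43 (SE; adjusted p = 0.214), Mrps36 at 0.39 ± 0.18 (adjusted p = 0.123) and Mrps18a at 0.32 ± 0.32 (adjusted p = 0.5). Mrps16 was dim, at 29.3, 13.7 and 24.8 in the controls and 51.3, 62.7, 50.7 and 22.4 at the low dose, and the groups overlapped. Mrps36 carries a mitoribosome name but belongs to the 2-oxoglutarate dehydrogenase complex, and Mrps18a sits in the large subunit in ribosome structures in spite of its name. The untested Mrpl14 and Mrpl49 had group means between 3.8 and 20.7 on all of their probe sets.

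**Figure D2:**
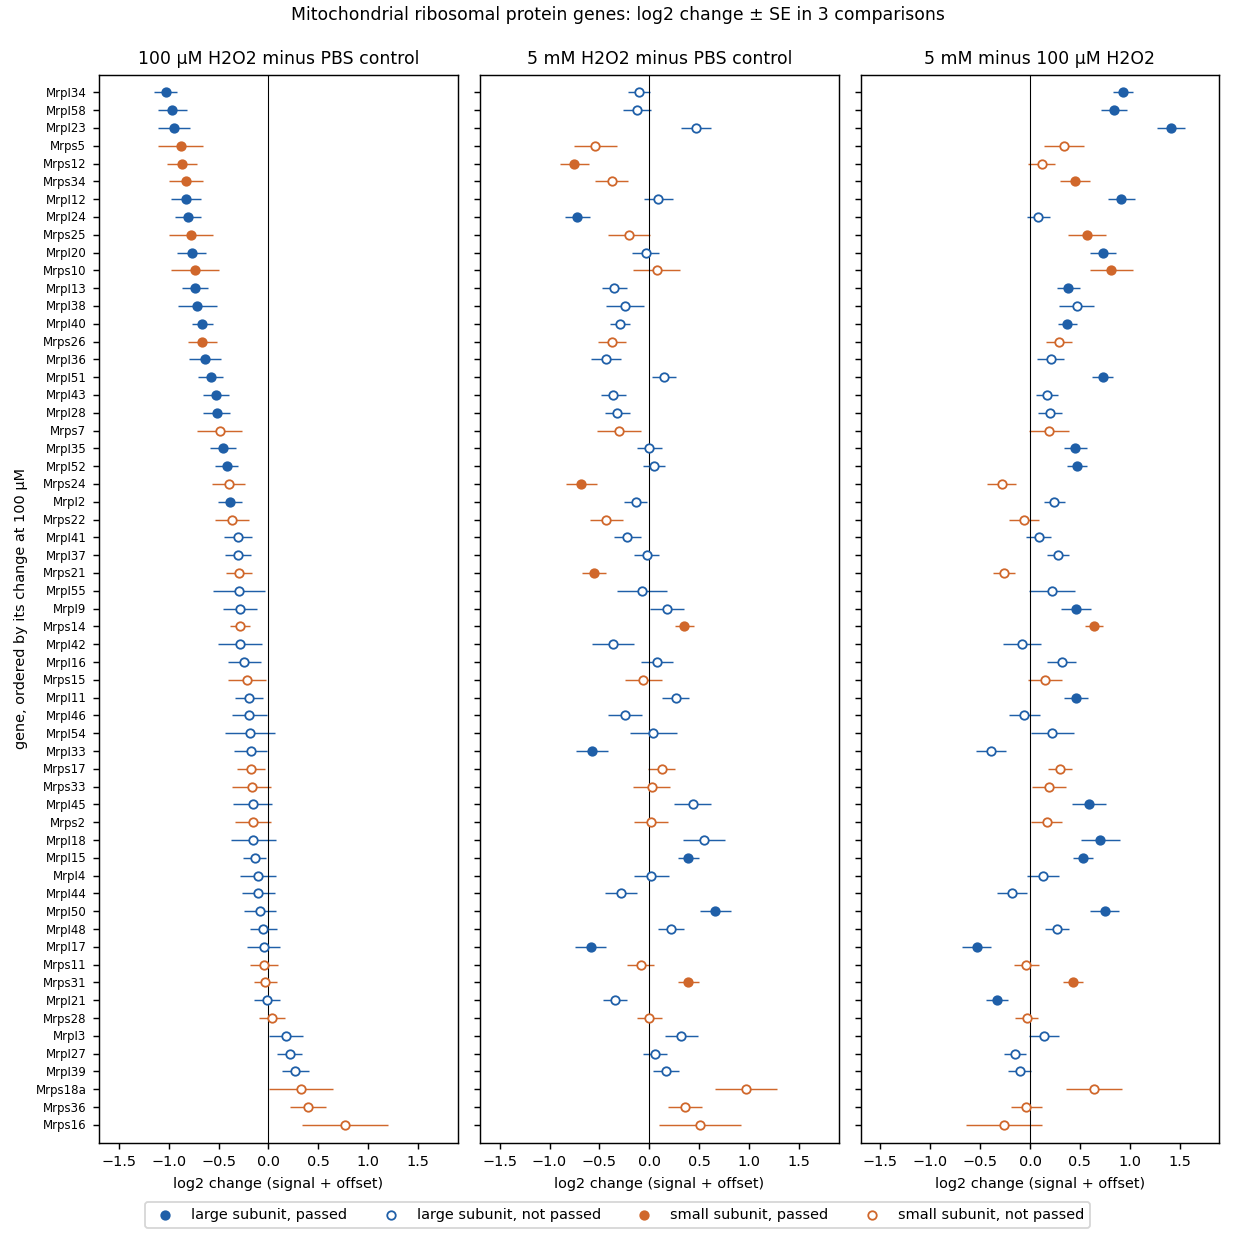
Log2 change with SE (horizontal axis, log2 of signal plus offset) for each of the 59 tested members, ordered from top to bottom by the change at 100 µM, in the 3 comparisons; filled points passed the threshold and colour marks the subunit. In the left panel 22 filled points all lie below 0, from Mrpl34 at -1.03 to Mrpl2 at -0.38; in the middle panel 4 lie above and 6 below; in the right panel 21 lie above and 2 below.

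Over 25 other settings the count of members called ran from 18 (without control replicate 2) to 28 (common median). Of all tested genes, 16.5% and 25.2% were called at those settings. Of the 22, 17 passed in the same direction under every setting that gave a value: Mrpl12, Mrpl13, Mrpl20, Mrpl23, Mrpl24, Mrpl28, Mrpl34, Mrpl36, Mrpl40, Mrpl43, Mrpl51, Mrpl52, Mrpl58, Mrps5, Mrps12, Mrps26 and Mrps34. The call was lost for Mrps10 under 9 settings (every control array left out in turn among them), for Mrpl2 under 6, for Mrpl35 under 3, for Mrpl38 without control replicate 2 or 3, and for Mrps25 without control replicate 1. Scaling every array to a common median moved the median of all tested genes from 0.04 to -0.13 (377 genes higher and 1241 lower, against 761 and 817), and the members' median to -0.47 with 28 lower and 0 higher. Without probe sets of mean signal above 2000, 21 members fell.

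On each array, the median of the members' differences from their control means gave the same order. It lay between -0.05 and 0.07 on the control arrays, between -0.36 and -0.23 at the low dose and between -0.12 and 0.0060 at the high dose. The summed signal of the tested members was 39625 to 41262 in the controls, 31336 to 32523 at the low dose and 39287 to 46255 at the high dose. By both measures every low-dose array lay below every other array, and the high-dose arrays overlapped the controls.

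**Figure D3:**
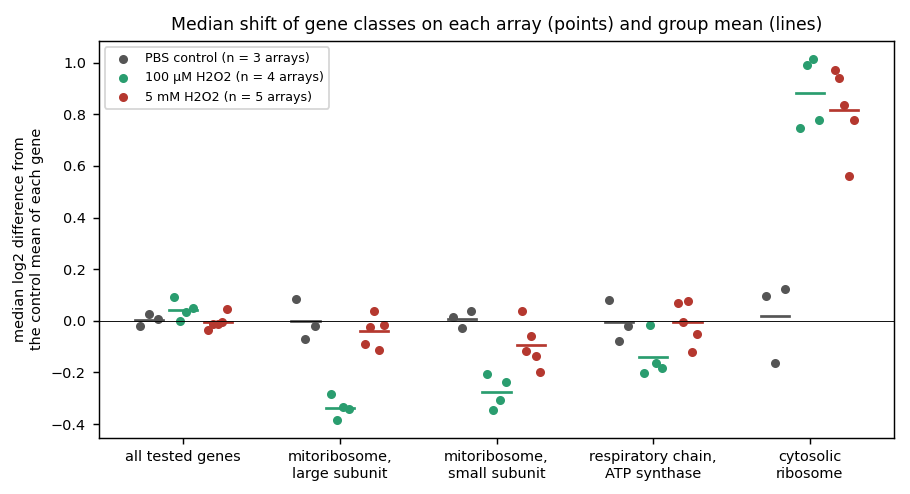
Median log2 difference of each gene class from the control means (vertical axis), for every array (points, coloured by treatment) with the group mean as a line; classes are along the horizontal axis. The large and small subunits of the mitochondrial ribosome both lie lowest at 100 µM, with group means of -0.34 and -0.27, while the cytosolic ribosome lies at 0.88 and 0.82 in the treated groups.

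The high dose was then compared with the same controls. Of the 59 tested members 4 rose and 6 fell in limma (16.9%), where 5.36% of all tested genes were higher, 6.84% lower and 12.2% called in either direction. The members' median was -0.04 against -0.01 over all genes, with 27 positive and 32 negative values. The groups did not overlap in 6 members that were higher and 14 that were lower at the high dose, where 8.84% and 11.7% of all tested genes were separate in those directions. Leaving out 1 array at a time, the low-dose count ran from 18 to 22 and the high-dose count from 5 to 11. The high-dose count was 5 without control replicate 2, 5 without control replicate 3 and 6 without high-dose replicate 1. In those fits 5.5%, 6.78% and 8.37% of all tested genes were called, so the share of all genes moved as well. The count of members was 17, of which 8 were higher, with array quality weights, where 19.7% of all tested genes were called. The split of higher to lower members was 6 to 5 after quantile normalization and 1 to 6 with a common median.

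Mrps12 and Mrpl24, given above for every array, had the most negative high-dose changes, at -0.75 ± 0.15 (SE; limma adjusted p = 0.0035) and -0.72 ± 0.12 (limma adjusted p = 0.00139). They were the only members of the 10 whose call was kept under every setting. Mrps24, a small subunit protein, read 470.2, 729 and 704 in the controls, 544, 411, 452 and 482 at the low dose, and 357, 379, 473, 338 and 391 at the high dose. It fell by 0.68 ± 0.16 (SE; limma adjusted p = 0.0115), although high-dose replicate 3 reached into the control range, and the call was lost without control replicate 2 or 3. Mrpl17, a large subunit protein with a bacterial counterpart, read 621, 485 and 471 in the controls, 523, 661, 409.6 and 454 at the low dose, and 354, 297, 385, 357 and 333 at the high dose. Here the controls and the low dose overlapped and the high dose lay below both; the high-dose change was -0.59 ± 0.16 (SE; limma adjusted p = 0.0239), and it did not pass without control replicate 1 or 2 or after quantile normalization. Mrps21, at 1008 ± 104 (SD, n = 3) in the controls, 818 ± 62.2 (n = 4) after 100 µM and 683 ± 75.3 (n = 5) after 5 mM, had a high-dose change of -0.56. Mrpl33 had one of -0.57, with group means of 196, 172 and 128, and lost its call without control replicate 1 or 3 or without high-dose replicate 1 or 2. For both Mrps21 and Mrpl33 every high-dose array lay below every control array.

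The members that rose at the high dose were Mrpl50, Mrpl15, Mrps31 and Mrps14. Mrpl50, a large subunit protein with no bacterial counterpart, read 387, 439.9 and 395 in the controls, 408, 359, 426 and 344 at the low dose, and 727, 477, 743, 579 and 773 at the high dose. The high dose lay above both other groups, which overlapped, and its change from the controls was 0.66 ± 0.15 (SE; limma adjusted p = 0.0117). The other probe sets of this gene gave different values: a dimmer one had -0.46 at the low dose, where it passed, and -0.26 at the high dose, and the third had -0.07 and 0.27 and did not pass. Read by the mean of its probe sets, Mrpl50 did not pass at the high dose. Mrps14, a small subunit protein with a bacterial counterpart, read 1333, 1214 and 1256 in the controls, 1046, 994, 1037 and 1073 at the low dose, and 1650.3, 1662, 1706, 1477 and 1617 at the high dose. Its 3 groups were separate, with the low dose below the controls (-0.29, limma adjusted p = 0.0546, not passed) and the high dose above them (0.35 ± 0.10 SE, limma adjusted p = 0.0306). Mrpl15 read 1014 ± 48.5 in the controls, 920 ± 58.1 after 100 µM and 1338 ± 121 after 5 mM (SD, n = 3, 4 and 5), and Mrps31 read 831 ± 61.9, 813 ± 73.2 and 1093 ± 56.7; both changed by 0.39 ± 0.11 (SE) at the high dose. None of the calls of Mrpl15, Mrps31 and Mrps14 was kept without control replicate 2, control replicate 3 or high-dose replicate 1, or with arrays scaled to a common median.

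Mrps18a had the most positive high-dose value, 0.97 ± 0.31 (SE), and did not pass (limma adjusted p = 0.0506). Its probe set read 519, 329 and 349.7 in the controls, 425, 636, 443 and 492 at the low dose, and 732, 569, 574, 1887 and 619 at the high dose, so 1 array stood far above the rest. Without that array, high-dose replicate 4, the value was 0.65 and passed (limma adjusted p = 0.031), and it passed under 6 other settings, among them the omission of control replicate 1 or of high-dose replicate 2 or 3. The other 3 probe sets of Mrps18a had high-dose values of -0.22, -0.13 and 0.32 and passed in no comparison. Mrpl18, the counterpart of a 5S ribosomal RNA binding protein of bacteria, read 4876, 4202 and 4266 in the controls, 3229, 4124, 5321 and 3592 at the low dose, and 10694, 6751, 6087, 5449 and 4879 at the high dose on its brighter probe set. The low dose overlapped both other groups on that probe set, and the high-dose change of 0.55 did not pass (limma adjusted p = 0.106); the dimmer probe set gave -0.41 (adjusted p = 0.104).

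The doses were compared with each other directly, in samples already used above, so these values are not independent of those against the controls. Of the 59 tested members, 21 were higher and 2 lower at the high dose (39%), where 13.8% of all tested genes were higher, 15.2% lower and 29% called in either direction. The members' median was 0.25 against -0.04 over all genes. The doses did not overlap in 19 members that were higher and 2 that were lower at the high dose, where 12.4% and 13.5% of all tested genes were separate in those directions. The largest difference was that of Mrpl23, 1.42 ± 0.14 (SE) or 2.67-fold (limma adjusted p = 2.1e-06). Against the controls, Mrpl23 had -0.95 after 100 µM and 0.47 after 5 mM, of which the second did not pass (adjusted p = 0.0545).

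Mrpl34 (0.93), Mrpl12 (0.92), Mrpl58 (0.85), Mrps10 (0.81), Mrpl20 (0.73), Mrpl51 (0.73), Mrps25 (0.57), Mrpl52 (0.47), Mrpl35 (0.46) and Mrps34 (0.45) were also higher at the high than at the low dose. Against the controls, the high-dose values of these 10 lay between -0.37 (Mrps34) and 0.15 (Mrpl51), and none passed. Mrpl51, a large subunit protein with no bacterial counterpart, read 1701, 1492 and 1453 in the controls, 1069.9, 1116, 1023 and 919.7 at the low dose, and 1683, 1902, 1899, 1516 and 1598 at the high dose. Its low-dose arrays lay below all others, and the controls and the high dose overlapped. Mrpl50 (0.75), Mrps14 (0.64), Mrpl15 (0.53) and Mrps31 (0.43), which rose at the high dose against the controls, were higher than at the low dose as well. The rest of the 21 were Mrpl18 (0.70), Mrpl45 (0.59), which lies at the exit of the nascent chain and holds the ribosome to the inner membrane, Mrpl9 (0.46), Mrpl11 (0.46), a protein at the base of the stalk, Mrpl13 (0.38) and Mrpl40 (0.38).

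The members lower at the high than at the low dose were Mrpl17 (-0.54 ± 0.14 SE, limma adjusted p = 0.0103) and Mrpl21 (-0.33 ± 0.11 SE, limma adjusted p = 0.0371), and Mrpl33 at -0.39 came next without passing (adjusted p = 0.0586). Mrpl21, a large subunit protein with a bacterial counterpart, read 1192, 911 and 994.6 in the controls, 1001, 1110.0, 929 and 1036 at the low dose, and 841, 765, 703, 920.2 and 815 at the high dose. The low and high doses did not overlap, but the control range reached into the high-dose range. The call of Mrpl21 was lost under 10 of 25 settings, among them the omission of low-dose replicate 1, 2 or 4 or of high-dose replicate 1, 2, 3 or 5. Of the 21 higher members, 15 kept their call under every setting; Mrpl9, Mrpl13, Mrpl18, Mrpl45, Mrps25 and Mrps34 lost it when at least 1 array was left out.

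The large and small subunits were compared next. At the low dose 16 of 38 large subunit genes (42.1%) and 6 of 21 small subunit genes (28.6%) fell, with medians of -0.29 in both, where 12.7% of all tested genes were lower and 24.6% called either way. At the high dose against the controls 2 large subunit genes rose and 3 fell, as did 2 and 3 small subunit genes, with medians of -0.03 and -0.06; the shares called were 13.2% and 23.8%, against 12.2% of all tested genes. Between the doses 16 large subunit genes were higher and 2 lower, with a median of 0.27, and 5 small subunit genes were higher and 0 lower in limma, with a median of 0.19 (9 small subunit genes had an unadjusted p under 0.05). The shares called between the doses were 47.4% of large and 23.8% of small subunit genes, against 29% of all tested genes. The medians of the subunits thus differed by -0.0038 at the low dose, 0.03 at the high dose and 0.09 between the doses. Between single arrays of a group the same difference had an SD of 0.0864, which is not the standard error of those values. With Mrps18a counted in the large subunit, where structures place it, the medians were -0.29 and -0.29 at the low dose. They were -0.03 and -0.07 at the high dose and 0.28 and 0.18 between the doses, with Mrps36 still in the small subunit. Members are not replicates, so these differences carry no test, and no difference in share between the subunits was shown.

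**Figure D4:**
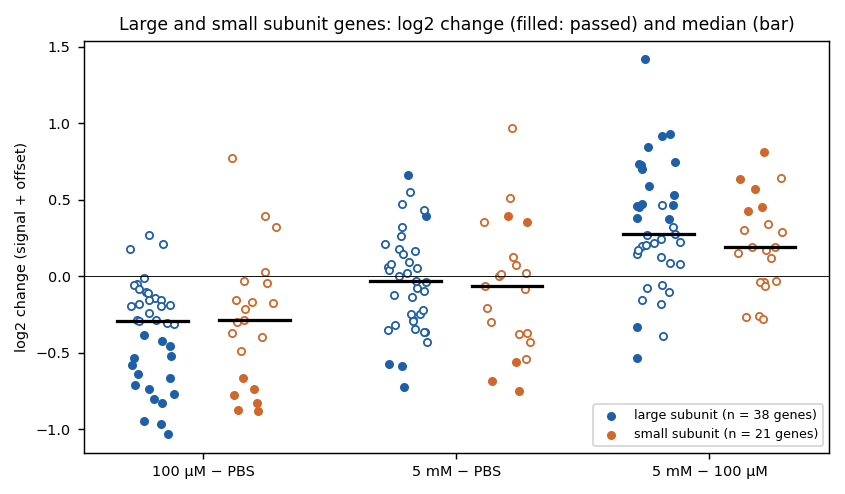
Log2 change of each tested member (vertical axis, log2 of signal plus offset) by comparison (horizontal axis) and subunit (colour); filled points passed and black bars are medians. The large and small subunit medians lie at -0.29 and -0.29 for 100 µM against PBS, -0.03 and -0.06 for 5 mM against PBS, and 0.27 and 0.19 for 5 mM against 100 µM.

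On single arrays the large subunit median minus the small subunit median was -0.06 to 0.07 in the controls, -0.10 to -0.03 at the low dose and -0.13 to 0.18 at the high dose, so all 3 groups overlapped. The summed signal of the large subunit genes was 28631 to 30654 in the controls, 22501 to 23755 at the low dose and 28726 to 35206 at the high dose. That of the small subunit genes was 10609 to 11194, 8672 to 8835 and 10097 to 11224. In each subunit the low-dose arrays lay below all others, and the high-dose arrays overlapped the controls.

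Members were also split by number, taking Mrpl up to 36 and Mrps up to 21 as those with a bacterial counterpart; the split has exceptions, since structures place Mrps24 as a counterpart of a bacterial protein. At the low dose 13 of 33 members with a counterpart fell (39.4%) and 9 of 26 others (34.6%), with medians of -0.29 and -0.30. Of all tested genes, 12.7% were lower and 24.6% called either way. Within the large subunit the counts were 10 of 21 (47.6%) and 6 of 17 (35.3%). Within the small subunit they were 3 of 12 (25%) and 3 of 9 (33.3%). At the high dose 2 members with a counterpart rose and 5 fell, and 2 others rose and 1 fell, with medians of 0.00066 and -0.10; the shares called were 21.2% and 11.5%, against 12.2% of all tested genes. Between the doses 12 of 33 were higher and 2 lower (42.4%), and 9 of 26 were higher (34.6%), against 29% of all tested genes.

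Several members were read by more than 1 tested probe set, and these did not always give the same call. Both probe sets of Mrps25 fell at the low dose, at -0.78 and -0.68. Mrpl45 did not pass on the probe set that stood for it (-0.16), and its other probe set fell by 0.71 (limma adjusted p = 0.00173), from 737, 751 and 733 in the controls to 450.1, 431, 479 and 435 at the low dose. On that second probe set the low dose lay apart from the controls, while on the first the groups overlapped. Mrpl48 likewise had -0.05 on its brighter probe set and -0.58 on the dimmer one (limma adjusted p = 0.0394).

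Families that work with the mitochondrial ribosome were read beside it. Of 66 tested nuclear genes of the respiratory chain and ATP synthase, whose mitochondrially encoded partners this ribosome makes, 4 rose and 13 fell at the low dose (25.8%), with a median of -0.14, and 6 rose and 3 fell at the high dose (13.6%), with a median of -0.02. Called in either direction, these shares lie near those of all tested genes, 24.6% and 12.2%. By direction these genes leaned lower at the low dose, where 12.7% of all tested genes were lower and 11.9% higher. Low-dose and control arrays were separate in 20 lower and 7 higher, against 15.2% and 17.2% of all tested genes. Between the doses 17 were higher and 5 lower, against 13.8% and 15.2% of all tested genes, with a median of 0.16 against -0.04. Of 32 tested cytosolic ribosomal protein genes 19 rose and 1 fell at the low dose (62.5%), with a median of 0.78. At the high dose 18 rose and 1 fell (59.4%), with a median of 0.81. Their values ran from -1.34 to 7.13 at the low dose and from -1.43 to 7.60 at the high dose. The part of the shift at the bright end of the scale in these values was not tested.

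**Figure D5:**
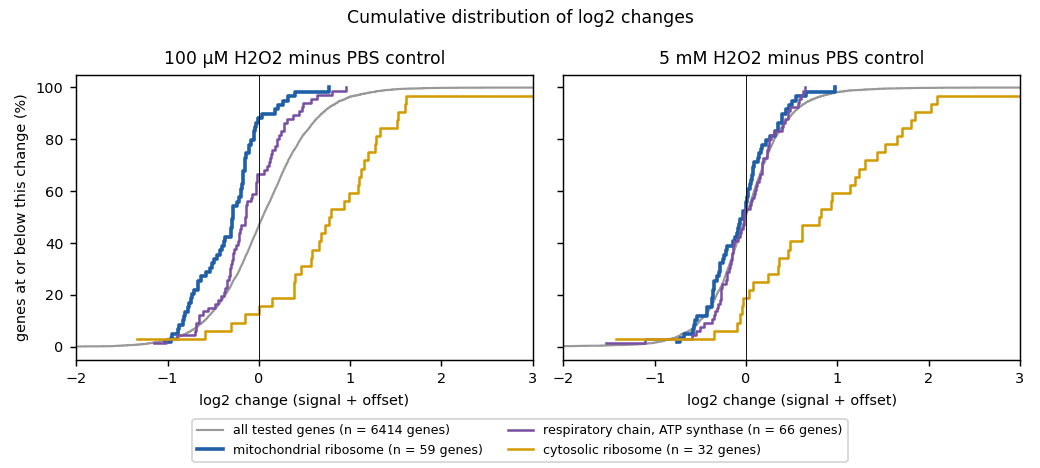
Share of genes at or below a given log2 change (vertical axis, %) for all 6414 tested genes, the 59 members, 66 respiratory chain and ATP synthase genes and 32 cytosolic ribosomal protein genes, at 100 µM (left) and 5 mM (right) against PBS; the horizontal axis is cut at -2 and 3. The curve of the members lies left of all tested genes at 100 µM, with medians of -0.29 and 0.04, and close to it at 5 mM, with medians of -0.04 and -0.01.

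Other genes of mitochondrial translation were taken by list. At the low dose 50% of the translation factors and 50% of the assembly list were called, against 24.6% of all tested genes. At the high dose the shares were 0% and 16.7%, against 12.2%. Of 4 tested mitochondrial translation factors 2 fell at the low dose: Tufm (-0.77), the elongation factor that brings aminoacyl-tRNA to the ribosome, and Tsfm (-0.78), its nucleotide exchange factor; Gfm1, the translocase, had -0.12 and Mtif2, the initiation factor, -0.01. Of 12 tested assembly factors and mitoribosome proteins with other names, 5 fell and 1 rose. Dap3, a GTP-binding protein of the small subunit, had -0.88, the assembly helicase gene Dhx30 -0.65, Ngrn, which acts on the large ribosomal RNA, -0.49, and Ptcd3, a pentatricopeptide protein of the small subunit, -0.48. The fifth, Mettl5 (-0.63), modifies cytosolic ribosomal RNA and is on the list by its name family only. The member that rose was Mterf3 (0.55), a negative regulator of mitochondrial transcription. At the high dose Dap3 (-0.48) and Ptcd3 (-0.44) fell and the other 10 did not pass, and limma called 0 of the 4 translation factors (0 had an unadjusted p under 0.05).

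Of 18 tested genes of mitochondrial DNA expression and its nuclear regulators, 1 rose at the low dose and 7 fell (44.4% called, against 24.6% of all tested genes). Those that fell were Polrmt, the mitochondrial RNA polymerase (-0.73), the messenger-stabilizing partners Slirp (-0.73) and Lrpprc (-0.62), and the helicase gene Supv3l1 (-0.65). The others were the protease gene Lonp1 (-0.62), the coactivator gene Pprc1 (-0.68) and Myc (-1.36), a transcription factor that drives ribosome and mitochondrial biogenesis. Yy1, which encodes the factor whose letters were searched above, rose by 0.94 (limma adjusted p = 3.5e-04). Gabpa, which encodes the DNA-binding subunit of GABP, had 0.39 (adjusted p = 0.166). Between the doses 5 of the 18 were higher at the high dose, Myc (0.95), Polg2 (0.46), Slirp (0.41), Lrpprc (0.37) and Lonp1 (0.31), and 3 were lower, Yy1 (-1.06), Gabpa (-0.93) and Pnpt1 (-0.59). The share of these genes called between the doses was 44.4%, against 29% of all tested genes. At the high dose against the controls Polrmt (-0.56) and Pprc1 (-0.87) fell and the other 16 did not pass (11.1% called, against 12.2%). Of 6 tested mitochondrial aminoacyl-tRNA synthetase genes, Tars2 fell at the low dose (-1.21) and the other 5 did not pass. That share, 16.7%, lies below the 24.6% of all tested genes.

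Markers of other cells that such cultures can hold also moved with treatment. Primitive endoderm is an extraembryonic lineage that embryonic stem cell cultures can form. Of its 17 tested markers, 6 rose and 0 fell in limma at the low dose (Lrp2, at -0.45, also had an unadjusted p under 0.05), and 0 rose and 13 fell at the high dose (14 had an unadjusted p under 0.05). Their summed signal was 7172 to 11553 in the controls, 10628 to 11490 at the low dose and 1383 to 1583 at the high dose. None read 0 on any array, but at the high dose Foxa2 averaged 11.3 and Gata6 23.6, beside an offset of 10.1, while Lama1 averaged 317. The shares of these markers called were 35.3% at the low and 76.5% at the high dose, against 24.6% and 12.2% of all tested genes. At the low dose the sum overlapped the controls through control replicate 1 alone (11553); the other control arrays had 7172 and 7401, below every low-dose array. The markers that rose at the low dose, where the members fell, were Foxa2 (2.62), Gata6 (1.76), Pdgfra (1.11), Dab2 (0.91), Sox7 (0.70) and Col4a1 (0.53), and for each of them the low-dose arrays lay above every control array. Of 11 tested fibroblast markers 1 rose and 1 fell at the low dose and none passed in limma at the high dose (3 had an unadjusted p under 0.05); their summed signal was 1380 to 1610 in the controls, 1685 to 2068 at the low dose and 1411 to 1884 at the high dose. None of these read 0, but Lum averaged 19.3 in the controls and S100a4 20.3 at the high dose. The share of fibroblast markers called at the low dose was 18.2%, below the 24.6% of all tested genes. Of the 13 pluripotency markers 4 rose at the low dose, Klf4 (1.49), Nanog (0.71), Sox2 (0.61) and Dppa5a (0.54), and 3 fell, Utf1 (-0.89), Dppa4 (-0.57) and Dppa2 (-0.51). Between the doses Dppa2 (0.70), Dppa4 (0.61) and Utf1 (0.61) were higher at the high dose, and against the controls their high-dose values of 0.19, 0.04 and -0.28 did not pass, the order also seen in Mrpl34 and Mrpl58. At the high dose against the controls 2 pluripotency markers rose, Dppa5a (0.66) and Nanog (0.51), and Fgf4 fell (-0.58). The shares of the 13 called were 53.8% at the low dose, 23.1% at the high dose and 46.2% between the doses. Those of all tested genes were 24.6%, 12.2% and 29%. The 3′/5′ signal ratio of Actb, a measure of RNA integrity, was 1.26 ± 0.635 (SD, n = 3), 1.32 ± 0.166 (n = 4) and 1.23 ± 0.162 (n = 5), and that of Gapdh 0.733 ± 0.128, 0.878 ± 0.0667 and 0.835 ± 0.0400. The similar Actb means rest on control replicate 1, at 1.995, which lay above every treated array. Control replicates 2 and 3 had Actb ratios of 0.8708 and 0.9209, below every treated array. Low-dose arrays had 1.106 to 1.486 and high-dose arrays 1.053 to 1.493. The part of these markers and ratios in the members' values was not tested.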

How the data were processed

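Per the submitters' processing notes, the deposited intensities are MAS5 signals on a linear scale, 1 per probe set and array; the version is not given in the sources used here, nor is the scaling target. The authors' scaling was kept, since the arrays' 2% trimmed means differed by at most 0.0195%. Arrays have no read depth; their number limits the precision. Names came from the platform annotation, and 5 probe sets that carry a member's symbol beside others were left out.

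Values were taken as log2(signal + 10.1), the offset being the 20th percentile, which understates changes of dim probe sets. The 8695 probe sets with a mean above the 30th percentile were tested with limma 3.58.1 in R 4.3.3, with a mean per group over all 12 arrays, eBayes with a trend, two-sided tests and Benjamini-Hochberg adjustment over all of them. A gene was read by its tested probe set of highest mean. The steps were tested on simulated data.

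Members named were those past the threshold in any of 3 comparisons, the 3 largest rises and falls in each, those whose probe sets disagree, those below the filter, and Mrps18a, Mrps36, Mrpl12 and Mrps12. Members and lists were chosen with earlier results of these data known. Same-numbered arrays of different groups had deviations correlated at -0.178 to 0.148 over 10 pairs, and different-numbered ones at -0.162 to 0.177, so the numbers were not taken as pairs.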

Additional observations from a re-analysis of the deposited data

Results flagged for a closer look

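In 2 of 78 groups of 4 or 5 arrays examined for the named members, 1 array stood far from the others of its group. By its nominal level, chance alone passes the cut-off used in about 1 of 20 groups, a rate that 2 of 78 does not exceed. The groups share the same arrays, and whether these 2 arose by chance was not tested. Mrpl33, the counterpart of a small zinc-binding protein of the bacterial large subunit, read 108.5 on high-dose replicate 2 and 132.2 to 134.7 on the other 4 high-dose arrays. Mrps18a read 1887 on high-dose replicate 4 and 569.4 to 732.5 on the other 4 high-dose arrays.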

How the results depend on the processing

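In all, 25 other settings were tried, 12 of which left out 1 array each; 1, without shared or incomplete probe sets, was chosen after seeing the data. Of 2916 values of named members, 2732 kept their direction and side of the threshold, 97 lost the call, 50 gained one, and 36 that passed in neither fit changed sign. The 1 reversal was Mrpl18 between the doses, at -0.20 without probe sets above 2000, where its dimmer probe set stands for it. The count of members called was 18 to 28 at the low dose (18 to 22 leaving out an array), 19 to 26 between the doses (19 to 25) and 3 to 17 at the high dose (5 to 11). The high-dose count of 10 became 17 with array quality weights, 5 without control replicate 2 or 3, and 6 without high-dose replicate 1. The share of all tested genes called moved too, from 12.2% to 19.7%, 5.5% and 6.78%, and 8.37%, and was 6.97% with a replicate block. With the replicate block, the count was 3 at the high dose (1 higher, 2 lower), 21 at the low dose (20 lower, and Mrps36 higher) and 21 between the doses, but the numbers were not shown to pair samples. The large minus small subunit median at the low dose was -0.13 after quantile normalization and ranged from -0.11 (without control replicate 3) to 0.012 leaving out 1 array. Between the doses it ran from 0.0078 (without high-dose replicate 5, or with the replicate block) to 0.15 (without low-dose replicate 3). The causes were not tested.

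Dim members and groups of 3 to 5 arrays limit the calls, and Mrpl14 and Mrpl49 were too dim to test.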

Other observations

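For 16 members the RefSeq promoter window overlaps that of a gene on the other strand, and in 5 such pairs both genes were tested. Mrps12 shares 246 bases of its window with Sars2, which encodes the mitochondrial seryl-tRNA synthetase; at the low dose Mrps12 fell (-0.87), and Sars2 had 0.22 (limma adjusted p = 0.335). Mrpl40 shares 212 bases with Hira, a histone chaperone gene; Mrpl40 fell (-0.66), and Hira had 0.18 (limma adjusted p = 0.678). Mrpl2, which shares 240 bases with the kinesin light chain gene Klc4, fell (-0.38), and Klc4 had -0.15 (adjusted p = 0.553). Mrpl18 and the chaperonin gene Tcp1 share 263 bases, and had -0.15 and 0.13. Both genes of the fifth pair are members, Mrpl46 and Mrps11, which share 141 bases and had -0.19 and -0.05 at the low dose and -0.06 and -0.04 between the doses. The differences within pairs were not tested.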
